A study of Homo sapiens with 4 samples.

Results

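The genes described here are 9 genes of the NRF2 pathway and of the antioxidant enzymes under its control: NFE2L2, which encodes the transcription factor NRF2, its inhibitor KEAP1, and the genes GCLC, GCLM, TXNRD1, SRXN1, NQO1, HMOX1 and AKR1C1. They were chosen by name, as members of this pathway, by a rule that uses no measured value but was drawn up with earlier results of these data known, and 8 of the 9 had values among the 15219 genes of the deposited abundance table. AKR1C1 had no value in it. RNA had been sequenced from PANC-1, an established line from a pancreatic ductal adenocarcinoma, here not transduced and labelled as wild type (2 libraries), and from PZT-2 (2 libraries), a knockdown (KD) clone of PANC-1 that carries short hairpin RNAs against H2A.Z.1 and both isoforms of H2A.Z.2, all forms of the histone variant H2A.Z. The hairpins were delivered by lentivirus to cells then selected with puromycin, and both lines were grown in the same medium. PZT-2 is 1 clone and PANC-1 is neither transduced nor selected, so the knockdown, the clone and the selection cannot be told apart in this comparison. Libraries of cells with a scrambled hairpin are not analysed here.

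In unstressed cells KEAP1 holds NRF2 in the cytoplasm and hands it to the ubiquitin ligase of CUL3, so that the protein is degraded soon after it is made. Oxidants and electrophiles modify cysteines of KEAP1, and NRF2 then accumulates, enters the nucleus, pairs with a small MAF protein and binds antioxidant response elements (AREs) near its target genes. Its targets make glutathione, reduce thioredoxin and peroxiredoxin, reduce quinones and degrade heme. Because NRF2 is mainly set at the level of the protein, its mRNA need not follow its activity. Pancreatic ductal tumors are known to use this programme.

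The question of the design was how gene expression differs between the KD clone and PANC-1. Values below are estimated read counts of kallisto summed over the transcripts of each gene, scaled to the mean effective library size and called normalized counts, and each ± is an SD over 2 libraries. A gene was called when its adjusted p value was under 0.05 by the quasi-likelihood test of edgeR, with Benjamini-Hochberg adjustment over all 15099 genes tested, and log2 fold changes are PZT-2 against PANC-1 with their standard error (SE). The study describes the libraries as biological replicates, but how separate the cultures were is not given in the labels. The p values therefore weigh the difference between the lines against variation between these libraries, moderated over all genes. Recovered totals ranged from 12861457 to 15717541 counts per library. The targeted genes were lower in the KD clone, as H2AFZ (H2A.Z.1) was at 6389 and 6034 in PANC-1 and 2212 and 2259 in PZT-2, and H2AFV (H2A.Z.2) at 3344 and 3452 against 2590 and 2718, where the counts are summed over both H2A.Z.2 isoforms. All 8 markers of ductal epithelium had values, with a summed level of 7370 and 7330 TPM (the length-normalized transcript level of kallisto) in PANC-1 and 3930 and 3850 in PZT-2. Of these, 1 rose (SOX9) and 5 fell (KRT8, KRT18, KRT19, CDH1 and MUC1), and the keratins KRT8, KRT18 and KRT19 carried most of the counts. Of 14 markers of acinar, endocrine, stromal and blood cells, 11 had no value, among them PRSS1, INS, DCN and PTPRC, and the rest summed to between 0.451 and 0.988 TPM in a library. Whether the lower ductal markers have a part in the results below was not tested. In such bulk RNA, fewer cells that express a gene and less of its RNA per cell cannot be told apart.

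The core letters of an ARE are given here for the promoters in which they were found, because they are the letters NRF2 is known to read. Windows from 250 bases before to 50 bases after a transcription start were taken from RefSeq (GRCh38.p14), not the hg19 build that the submitters' processing notes name, and 8 of the 9 genes had 11 windows. HMOX1 had none. The motif searched was TGACNNNGC on both strands, which 4687 of all 35116 windows (13.3%) held. It was present in the window of GCLM, in 1 of the 2 windows of KEAP1 and in both windows of TXNRD1, and was not found in those of NFE2L2, NQO1, GCLC, SRXN1 and AKR1C1. The sites are printed 5′ to 3′ on the strand of the gene with 30 bases each, the core in capitals, and in reverse complement where the motif lies on the other strand:
GCLM: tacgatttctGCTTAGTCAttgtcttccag
KEAP1, downstream start, nearer site: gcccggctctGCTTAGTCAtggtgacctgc
KEAP1, downstream start, farther site: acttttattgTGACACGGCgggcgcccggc
TXNRD1, upstream start, farther site: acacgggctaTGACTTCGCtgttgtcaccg
TXNRD1, upstream start, nearer site: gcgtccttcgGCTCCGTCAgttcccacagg
TXNRD1, downstream start: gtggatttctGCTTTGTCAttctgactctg

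Positions of these sites are counted from the first transcribed base, which is 1, with no 0. The GCLM site (chr1:93909445-93909474, minus strand) has its core at -34 to -26. The KEAP1 sites lie before the downstream of its 2 listed starts, with cores at -31 to -23 (chr19:10502783-10502812, minus strand) and at -54 to -46 (chr19:10502806-10502835, minus strand). GCLM and the nearer KEAP1 site hold the same 9 core letters. For TXNRD1 the upstream start has cores at -99 to -91 (chr12:104215670-104215699, plus strand) and at -8 to 1 (chr12:104215761-104215790, plus strand), the last of which reaches into the first exon, and the downstream start has a core at -102 to -94 (chr12:104286920-104286949, plus strand). The related AP-1 motif TGACTCA, which overlaps the ARE core where GC follows it, was in 1738 of all windows (4.95%) and in none of the 11. Among the 11333 tested genes with a window, 2156 held the ARE core, and of these 16.2% were called higher and 15.6% lower in PZT-2, against 15.5% and 14.0% of those without it. A match is a description of the letters only, and many functional elements lie outside such short windows.

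The mRNAs of both regulators fell in PZT-2. NFE2L2 was at 1204 and 1081 normalized counts in PANC-1 and at 964 and 818 in PZT-2, so that both KD libraries lay below both controls, with means of 1142 ± 87.1 and 891 ± 104. Its log2 fold change was -0.36 (SE 0.0995), at an adjusted p of 0.0392 in edgeR. This call was close to the threshold and was lost when PANC-1 replicate 1 (log2 -0.28, edgeR adjusted p = 0.0615) or PZT-2 replicate 2 (log2 -0.24, edgeR adjusted p = 0.205) was left out. KEAP1, the substrate adaptor that presents NRF2 for degradation, was at 1826 and 1756 in PANC-1 and at 1345 and 1472 in PZT-2. The groups did not overlap here either, with a log2 fold change of -0.35 (SE 0.069) and an edgeR adjusted p of 0.0124. Leaving out PZT-2 replicate 1 gave -0.28 with an edgeR adjusted p of 0.0958. The fitted ratio of PZT-2 to PANC-1 was 0.787 for the inhibitor and 0.781 for the factor.

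**Figure D1:**
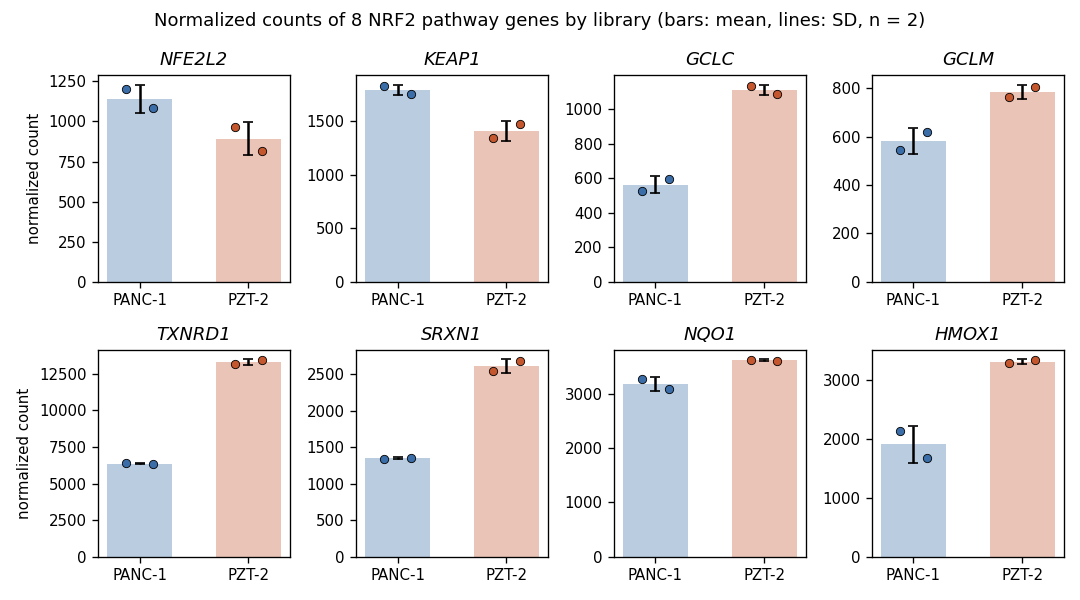
Normalized counts (vertical axes, from 0) of the 8 genes with values in PANC-1 (blue) and PZT-2 (orange), with points for the 2 libraries of each line, bars for the mean and lines for the SD. The points of PZT-2 lie below those of PANC-1 for NFE2L2 and KEAP1 and above them for the other 6 genes, with the largest ratio (2.09) for TXNRD1 and the smallest rise (1.14, not called) for NQO1.

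Glutamate-cysteine ligase makes the first and rate-limiting step of glutathione synthesis, and both of its subunits rose. GCLC, the catalytic subunit, had 528 and 597 normalized counts in the PANC-1 libraries and 1132 and 1089.8 in those of PZT-2. The PZT-2 values were close to each other and well clear of PANC-1, with a log2 fold change of 0.98 (SE 0.0824, edgeR adjusted p = 0.000693). GCLM, the modifier subunit that lowers the enzyme's need for glutamate and its inhibition by glutathione, had 546 and 619.9 in PANC-1 and 764 and 807 in PZT-2. Its rise was smaller, at 0.43 (SE 0.0877, edgeR adjusted p = 0.0137), and was not called without PZT-2 replicate 2 (log2 0.39, edgeR adjusted p = 0.0823). The ratio of catalytic to modifier subunit, in TPM and so per length, was 1.31 and 1.3 in PANC-1 and 2.01 and 1.82 in PZT-2. These ratios of mRNA did not overlap, and they do not measure the proteins. The difference between the changes of the 2 genes was not tested.

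Of the 8 genes, TXNRD1 of the thioredoxin system rose the most, and SRXN1 rose nearly as much as GCLC. TXNRD1 encodes the cytosolic thioredoxin reductase, a selenoprotein that uses NADPH to reduce thioredoxin. It was at 6406 and 6329 in PANC-1 and at 13199 and 13444 in PZT-2, the highest counts of the 8 genes, with libraries of a line close together. The log2 fold change was 1.06 (SE 0.0449, edgeR adjusted p = 8.47e-05), or 2.09-fold. SRXN1 encodes sulfiredoxin, which restores peroxiredoxins whose cysteine has been overoxidized. It was at 1344 and 1359 in PANC-1 and at 2548 and 2679 in PZT-2, a rise of 0.95 (SE 0.0595, edgeR adjusted p = 0.00028) or 1.93-fold. With each library left out in turn, both genes stayed called, with log2 fold changes of 1.05 to 1.08 for TXNRD1 and 0.92 to 0.99 for SRXN1.

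HMOX1 rose, whereas NQO1 did not pass the threshold. HMOX1 encodes the inducible heme oxygenase, which opens heme to biliverdin, carbon monoxide and iron and which is also repressed by BACH1. Its counts were 2130.0 and 1680.0 in PANC-1 and 3279 and 3336 in PZT-2. The control libraries were further apart than those of the other genes, with an SD of 318 on a mean of 1905 against 39.6 on 3308 in the KD clone. The log2 fold change was 0.80 (SE 0.108, edgeR adjusted p = 0.00321), and it was 0.97 when PANC-1 replicate 1 was left out and 0.63 when replicate 2 was, called in each. NQO1, a quinone reductase that is widely used as a readout of NRF2, was at 3283 and 3104 in PANC-1 and at 3639 and 3619 in PZT-2. The PZT-2 libraries were above both controls, by a log2 fold change of 0.19 (SE 0.0557), with an edgeR adjusted p of 0.0505 just outside the threshold. It was inside it without PANC-1 replicate 1 (log2 0.22, edgeR adjusted p = 0.0138). AKR1C1, an aldo-keto reductase of steroids and lipid aldehydes, is listed by symbol in the authors' results table but has no counts, and the related AKR1C2 and AKR1C3 also had no value.

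Of the 8 genes with values, 5 were called higher and 2 lower, and NQO1 was not called. All 8 passed the filter on low counts, which asked for at least 5 counts in at least 2 libraries. The deposited abundance table held 31077 transcripts, beside 66782 in the authors' results table, and 30371 of the 31077 already met this filter. Passing it was thus nearly fixed in advance, and shares over all genes cover only genes in that table. Whether genes without a value, such as AKR1C1, were left out for low counts is not given. Of all genes tested, 28.4% were called, with 14.7% higher and 13.7% lower, so that calls were frequent in this comparison. The libraries of the cell lines did not overlap for 8 of the 8 genes, 6 above and 2 below, beside 66.2% of all genes (33.3% above and 32.9% below). The median log2 fold change was 0.61 over the 8 genes and 0.001 over all genes tested. By the Wald test of DESeq2, which called 24.1% of its 13342 genes, 6 of the 8 were higher and 2 lower. These counts describe the 8 genes without a test of the group. With 2 libraries a line, an exact permutation test of any gene cannot go below p = 0.333, and none was made.

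**Figure D2:**
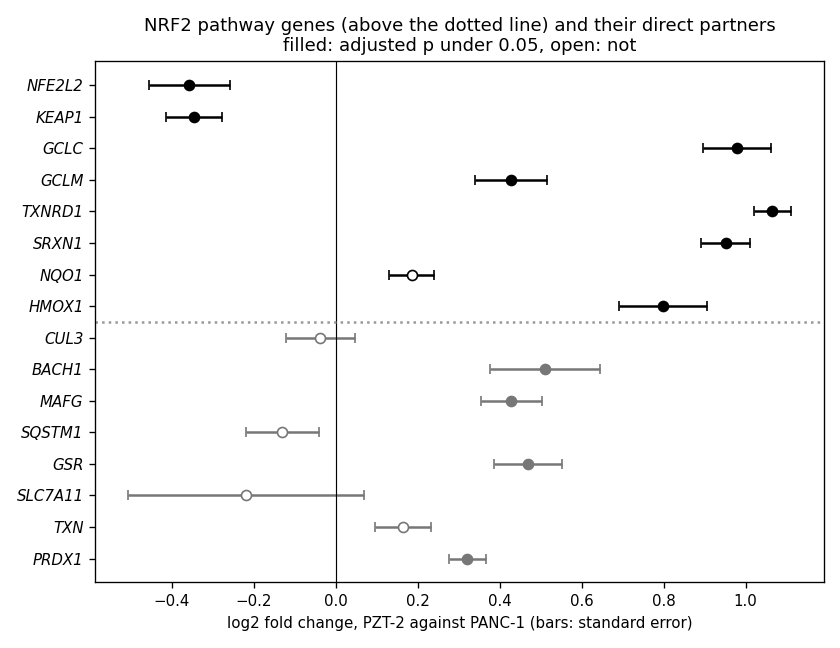
Log2 fold change of PZT-2 against PANC-1 (horizontal axis) with its standard error for the 8 genes, above the dotted line, and 8 direct partners below it, with filled points for an edgeR adjusted p under 0.05. TXNRD1 (1.06), GCLC (0.98), SRXN1 (0.95) and HMOX1 (0.80) lie farthest to the right, and NFE2L2 (-0.36) and KEAP1 (-0.35) farthest to the left.

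Levels between genes can be compared only per length, so the order is given in TPM as deposited. TXNRD1 had the highest level in PANC-1, at 208 and 207. HMOX1, at 180 and 143, and NQO1, at 166 and 158, followed with ranges that overlapped. Below them came KEAP1 (92.1 and 89.1), SRXN1 (64.9 and 66.0), NFE2L2 (54.6 and 49.2), GCLC (17.9 and 20.4) and GCLM (13.7 and 15.6), with no overlap between neighbours. The order in PZT-2 was TXNRD1 (428 and 434), HMOX1 (277 and 281), NQO1 (183 and 181), SRXN1 (122 and 128) and KEAP1 (67.6 and 73.8), again without overlap. NFE2L2 (43.4 and 36.6) and GCLC (38.2 and 36.6) then overlapped, and GCLM (19.0 and 20.1) was the lowest. SRXN1 and KEAP1 thus changed places between the lines. The deposited TPM sum to between 940619 and 1000097 a library, which bears on levels compared between libraries but not on the order within a library.

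Ratios of TPM set each enzyme beside the protein it works on or its closest relative. TXNRD1 to TXN, its substrate thioredoxin, was 0.631 and 0.559 in PANC-1 and 1.08 and 1.13 in PZT-2. SRXN1 to PRDX1, a peroxiredoxin that it repairs, was 0.0579 and 0.0568 against 0.0864 and 0.0908. TXNRD1 to TXNRD2, the mitochondrial reductase, was 7.58 and 8.37 against 18.8 and 19.2. TXNRD1 to GSR, glutathione reductase, was 10.8 and 11.2 against 17.3 and 16.2, and HMOX1 to HMOX2, the constitutive heme oxygenase, 2.19 and 1.73 against 3.41 and 3.36. In each of these the values of PZT-2 lay above both of PANC-1. Each has TXNRD1, SRXN1 or HMOX1 as its numerator, all called higher, so these ratios largely restate those rises. KEAP1 to NFE2L2 was 1.69 and 1.81 in PANC-1 and 1.56 and 2.02 in PZT-2, with the control values inside the range of the KD clone. No test was made of these ratios.

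NFE2L2, KEAP1 and TXNRD1 each have transcripts from more than 1 listed start, and their reads were grouped by the nearer of 2 starts, a grouping added after the data were seen. The share of reads that each transcript gets is an estimate of kallisto. Of 8 transcripts listed for NFE2L2, 2 had values, so its counts and shares rest on those 2. More of the rise of TXNRD1 was in the single transcript of the upstream start (NM_001093771), which was at 2263 and 2345 in PANC-1 and at 5796 and 6505 in PZT-2. Its log2 fold change was 1.42 (SE 0.071, edgeR adjusted p = 0.000175), and its share of the gene's TPM was 36.0% and 37.8% in PANC-1 and 44.7% and 49.2% in PZT-2. The 6 transcripts of the downstream start had together 4143 and 3985 against 7404 and 6940.0, a rise of 0.82 (SE 0.0566, edgeR adjusted p = 0.000383). Both starts have an ARE core in the windows printed above.

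For KEAP1 the lower counts were in the transcript of the upstream start (NM_203500), at 1208 and 1052 in PANC-1 and at 645 and 722 in PZT-2. It fell by 0.72 on the log2 scale (SE 0.0961, edgeR adjusted p = 0.00299), and its share of the gene went from 65.9% and 59.6% to 47.7% and 48.7%. The transcript of the downstream start (NM_012289), the one with the ARE cores, had 618 and 704 against 699.6 and 751, values that overlapped between the lines (log2 0.13, SE 0.0901, edgeR adjusted p = 0.331). For NFE2L2 the upstream start (NM_006164), which encodes the full-length factor, carried 90.3% and 90.0% of the gene's TPM in PANC-1 and 88.5% and 81.7% in PZT-2, at 1082 and 968 against 848 and 663 counts (log2 -0.44, SE 0.125, edgeR adjusted p = 0.0416). That call was lost when PANC-1 replicate 1 (edgeR adjusted p = 0.0554) or PZT-2 replicate 2 (edgeR adjusted p = 0.17) was left out. The downstream start (NM_001145412) had 123 and 113 against 116 and 155, which overlapped (log2 0.20, SE 0.18, edgeR adjusted p = 0.448). Whether the starts of a gene differed in their change was not tested.

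**Figure D3:**
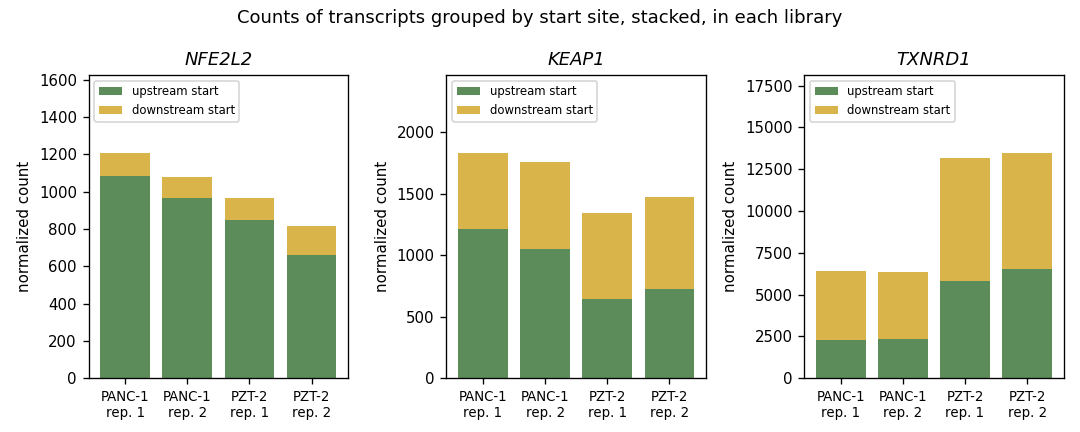
Normalized counts (vertical axes) of the transcripts of NFE2L2, KEAP1 and TXNRD1 in each of the 4 libraries, stacked by start site. The upstream part of TXNRD1 grows from 2263 and 2345 to 5796 and 6505, and that of KEAP1 shrinks from 1208 and 1052 to 645 and 722 while its downstream part stays between 618 and 751.

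Taken as separate transcripts, the 8 genes had 21 with values, all of which were tested, and 6 genes had more than 1. None passed edgeR's adjustment over 30403 transcripts, of which 45 (0.148%) did, whereas 14 of the 21 had an unadjusted p under 0.05, as did 18.5% of all transcripts tested. The smallest adjusted p, 0.051 in edgeR, belonged to NM_001093771 of TXNRD1 and to NM_080725, the only transcript of SRXN1. The Wald test of DESeq2 called 11 of the 21, beside 14.8% of the transcripts it tested, and edgeR with at least 10 counts in all 4 libraries called 9 of the 18 that it then tested, beside 5.86% of all 20642 transcripts under that filter. The main transcript of TXNRD1 in PANC-1, NM_182729 of the downstream start, had 2660 and 2509.6 counts there and 3672 and 3348 in PZT-2, and its share of the gene was 41.2% and 39.4% against 27.6% and 24.7%. For GCLM the minor transcript NM_001308253 made up 4.90% and 4.24% of the gene in PANC-1 and 7.51% and 14.4% in PZT-2. HMOX1 and SRXN1 had 1 transcript each, so no such split bears on them.

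The direct partners of NRF2 and KEAP1 did not move as a block. CUL3, the scaffold of the ligase that KEAP1 serves, was at 1107 and 1256 against 1105 and 1199.5, which overlapped (log2 -0.04, SE 0.0842, edgeR adjusted p = 0.782). SQSTM1, the autophagy receptor p62 that can draw KEAP1 away from NRF2 and is itself a target, was the most abundant of them, at 31507 and 26021 in PANC-1 and 25399 and 27136 in PZT-2 (log2 -0.13, SE 0.0891, edgeR adjusted p = 0.326). It was called lower without PANC-1 replicate 2 (log2 -0.27, edgeR adjusted p = 0.00205). MAFG, a small MAF protein that pairs with NRF2 on DNA, rose from 2294 and 2015 to 2871 and 2923 (log2 0.43, SE 0.0745, edgeR adjusted p = 0.00767), and was not called without PZT-2 replicate 2 (edgeR adjusted p = 0.0566). BACH1, the repressor that competes with NRF2 for the same sites, was higher, with 114 and 124 against 162 and 177 (log2 0.51, SE 0.134, edgeR adjusted p = 0.032). The BACH1 call was lost without PANC-1 replicate 1 (edgeR adjusted p = 0.0748), PZT-2 replicate 1 (0.0864) or PZT-2 replicate 2 (0.18).

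Among the enzymes and transporters next to the 8 genes, PRDX1, a cytosolic peroxiredoxin, rose from 8128 and 8349 to 10295 and 10289 (log2 0.32, SE 0.0452, edgeR adjusted p = 0.00368). GSR, which returns oxidized glutathione to its reduced form, rose from 477 and 453 to 616 and 669.5 (log2 0.47, SE 0.0836, edgeR adjusted p = 0.00838), with an edgeR adjusted p of 0.0591 without PZT-2 replicate 2. TXN was at 1966 and 2174 against 2346 and 2296, which did not overlap and did not pass (log2 0.16, SE 0.068, edgeR adjusted p = 0.122). It passed without PANC-1 replicate 2 (log2 0.23, edgeR adjusted p = 0.0158). SLC7A11, the cystine carrier that feeds glutathione synthesis, had 509.7 and 267 in PANC-1 and 365 and 295 in PZT-2. Its control libraries lay on either side of the KD libraries (log2 -0.22, SE 0.287, edgeR adjusted p = 0.619). Its log2 fold change was 0.30 without PANC-1 replicate 1 and -0.63 without PANC-1 replicate 2. The PANC-1 libraries were also far apart for some other genes of the lists below, such as PHGDH (1615 and 816), CHAC1 (606.5 and 208) and SESN2 (1513 and 391). The cause of this difference between the control libraries was not tested.

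Beyond the 9 genes, 9 lists of the wider pathway were drawn up from general knowledge, and they overlap. Together they held 171 genes, of which 147 were tested, with 29 called higher (19.7%), 26 lower (17.7%) and a median log2 fold change of -0.01. Over all genes tested 14.7% were called higher and 13.7% lower, and these shares are the background of each list below. The list counts moved when a library was left out, as did those over all genes, and their ranges are given at the end. The list of 40 other targets of NRF2 had 34 genes tested, of which 9 rose, 7 fell and 18 were not called, with a median of -0.004. OSGIN1, a growth inhibitor induced by oxidative stress, rose the most among those with a mean count of at least 50, from 145 and 117 to 373 and 421 (log2 1.61, edgeR adjusted p = 0.000737). PANX2, a pannexin, rose from 28.1 and 36.1 to 83.5 and 74.2 (log2 1.28, edgeR adjusted p = 0.00919), with an edgeR adjusted p of 0.054 without PZT-2 replicate 1. MGST1, a microsomal glutathione transferase, was at 133 and 106 in PANC-1 and at 0.0 and 20.8 in PZT-2. Its log2 fold change of -3.49 (edgeR adjusted p = 0.0163) ranged from -9.89 to -2.51 over the alternatives and was not called by DESeq2 (adjusted p = 0.323). ABCC2, an exporter of conjugates, fell from 93.4 and 100.3 to 51.3 and 50.4 (log2 -0.93, edgeR adjusted p = 0.0111), and was not called without PZT-2 replicate 1 (edgeR adjusted p = 0.0548) or 2 (0.0688).

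The 22 regulators and partners of NRF2 gave 5 higher, 4 lower and 13 not called, with a median of -0.025. The small MAF proteins MAFF (251 and 181 against 350.3 and 405, log2 0.82, edgeR adjusted p = 0.0136) and MAFK (2195 and 1702 against 2776 and 2888, log2 0.54, edgeR adjusted p = 0.0157) rose along with MAFG. Without PZT-2 replicate 2 neither MAFF (edgeR adjusted p = 0.0787) nor MAFK (edgeR adjusted p = 0.0788) was called. DPP3, a peptidase that binds KEAP1 in competition with NRF2, fell from 3345 and 3122 to 2257 and 2352 (log2 -0.49, edgeR adjusted p = 0.00253), but was not called from its most abundant transcript alone (edgeR adjusted p = 0.115). PARK7, the redox-sensitive protein DJ-1 that stabilizes NRF2, fell from 4159 and 4058 to 3277 and 3312 (log2 -0.32, edgeR adjusted p = 0.00598), with an edgeR adjusted p of 0.0568 or 0.0575 without PZT-2 replicate 1 or 2.

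Genes of glutathione synthesis and use other than GCLC and GCLM were called in equal number in each direction, 5 higher and 5 lower of 34 tested, with a median of 0.018. CHAC2, which degrades glutathione, rose from 69.8 and 68.7 to 98.6 and 118 (log2 0.64, edgeR adjusted p = 0.0355), and was not called when any of the libraries was left out (edgeR adjusted p of 0.0551 and 0.0699 for replicates 1 and 2 of PANC-1, and of 0.0684 and 0.216 for those of PZT-2). GPX7, a peroxidase of the endoplasmic reticulum, rose from 101 and 87.7 to 142 and 149 (log2 0.63, edgeR adjusted p = 0.0226), a call that was lost without PANC-1 replicate 2 (edgeR adjusted p = 0.0637), PZT-2 replicate 1 (0.0798) or PZT-2 replicate 2 (0.125). GPX4, which removes lipid peroxides from membranes, fell from 6446 and 5679 to 4148 and 3981 (log2 -0.58, edgeR adjusted p = 0.00244).

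In the thioredoxin and peroxiredoxin system apart from TXNRD1 and SRXN1, 2 of 22 genes rose and 5 fell, with a median of -0.076. The 2 that rose were PRDX1, given above, and PRDX6 (2410.1 and 2472 against 3034 and 2927, log2 0.29, edgeR adjusted p = 0.0111). PRDX6 was not called without PZT-2 replicate 1 (edgeR adjusted p = 0.0961) or 2 (0.0663). PRDX2, the other abundant cytosolic peroxiredoxin of many cells, fell from 332 and 334 to 200.3 and 168 (log2 -0.85, edgeR adjusted p = 0.00358). MSRA, a methionine sulfoxide reductase that draws on thioredoxin, fell from 141 and 138 to 83.5 and 91.0 (log2 -0.68, edgeR adjusted p = 0.0157), with an edgeR adjusted p of 0.0904 or 0.0688 without PZT-2 replicate 1 or 2. Of the 9 genes of superoxide and peroxide removal, 4 rose and 2 fell, with a median of 0.22. SOD2, the mitochondrial superoxide dismutase, rose from 1366 and 1266 to 2844 and 3197 (log2 1.20, edgeR adjusted p = 0.000338), and PXDN, peroxidasin, from 146 and 136 to 243 and 248 (log2 0.80, edgeR adjusted p = 0.00394). The 2 that fell were PRDX2 and GPX4.

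NADPH is the reductant of TXNRD1, NQO1 and GSR. Of 17 tested genes listed around its supply, not all of which form it, 3 rose and 6 fell, with a median of -0.04. IDH1, the cytosolic isocitrate dehydrogenase, fell from 801 and 786 to 439 and 469.7 (log2 -0.80, edgeR adjusted p = 0.000982). NNT, the mitochondrial transhydrogenase, fell from 1494 and 1517 to 867 and 866 (log2 -0.80, edgeR adjusted p = 0.000483). RPIA, of the non-oxidative pentose phosphate branch, rose from 294 and 329 to 498 and 485 (log2 0.66, edgeR adjusted p = 0.00395). That branch forms no NADPH, and ME2, given next, forms mainly NADH. ME2, a mitochondrial malic enzyme, rose from 648 and 760.0 to 861 and 932 (log2 0.34, edgeR adjusted p = 0.039), and was not called without PANC-1 replicate 1 (edgeR adjusted p = 0.0817), PZT-2 replicate 1 (0.0723) or PZT-2 replicate 2 (0.188).

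Of 14 genes of heme and iron handling tested beside HMOX1, 3 rose and 1 fell, with a median of 0.016. ALAS1, the first enzyme of heme synthesis, rose from 1509 and 1526 to 2559.7 and 2441 (log2 0.72, edgeR adjusted p = 0.000619), and TFRC, the transferrin receptor, from 7259.7 and 9098 to 12110.2 and 13150.2 (log2 0.63, edgeR adjusted p = 0.00683). ACO1, which as an apoprotein binds iron-responsive elements, fell from 1136 and 1109.8 to 918 and 909.8 (log2 -0.30, edgeR adjusted p = 0.0146), with an edgeR adjusted p of 0.0782 or 0.105 without PZT-2 replicate 1 or 2. Of 11 tested aldo-keto and carbonyl reductases, 1 rose and 3 fell, with a median of -0.26. CBR1, a carbonyl reductase, rose from 414 and 466 to 556 and 633 (log2 0.43, edgeR adjusted p = 0.0238), and was not called without PZT-2 replicate 2 (edgeR adjusted p = 0.131). AKR1A1 fell from 1319 and 1158 to 913 and 936 (log2 -0.42, edgeR adjusted p = 0.0109), with an edgeR adjusted p of 0.0614 or 0.0611 without PZT-2 replicate 1 or 2. AKR7A2 fell from 1221 and 1113 to 966 and 987 (log2 -0.26, edgeR adjusted p = 0.0393), a call lost without PANC-1 replicate 1 (edgeR adjusted p = 0.0871), PZT-2 replicate 1 (0.172) or PZT-2 replicate 2 (0.153). Among sources of reactive oxygen, 7 of 18 genes were tested and 2 rose, with a median of -0.01. CYBA, a membrane subunit of NADPH oxidases, rose from 1398 and 1272 to 1779.6 and 1959 (log2 0.49, edgeR adjusted p = 0.00584). Of the catalytic oxidases listed, NOX3, NOX4, CYBB and DUOX2 had no value. NOX1, NOX5 and DUOX1 were at 11.3 normalized counts or fewer in each library.

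Besides DPP3, the genes above that were called from all transcripts but not from the most abundant one were MAFF, MAFK, MAFG, BACH1, MGST1, ABCC2, CHAC2, GPX7, MSRA, ME2, AKR1A1, AKR7A2 and CBR1, with edgeR adjusted p values from 0.0522 (ABCC2) to 0.416 (AKR1A1). The Wald test of DESeq2 did not call BACH1, MGST1, ABCC2, CHAC2, GPX7, MSRA, ME2 and AKR7A2, with adjusted p values from 0.056 (ME2) to 0.323 (MGST1).

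The genes whose values over the 4 libraries were most like those of a member were found by the Euclidean distance of centred log2 CPM (counts scaled to library size), among the 11207 genes whose normalized counts averaged 50 or more. For TXNRD1, the gene of the 8 with the largest rise, they were FBXO41 (distance 0.0455), PRKCD (0.0493) and PCSK6 (0.0533). FBXO41 was at 191 and 187 in PANC-1 and at 389.5 and 387 in PZT-2. For NFE2L2, the gene of the 8 with the largest fall, they were ZSCAN22 (0.0184), TMX3 (0.0286) and DCP2 (0.0364). TMX3 was at 419 and 367 in PANC-1 and at 334 and 279 in PZT-2. Such a likeness over 4 libraries is a description, since these 6 genes were picked for it.

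The genes lie on different chromosomes, which are 2 for NFE2L2, 19 for KEAP1, 16 for NQO1, 22 for HMOX1, 6 for GCLC, 1 for GCLM, 12 for TXNRD1 and 20 for SRXN1 in RefSeq. To set each beside its surroundings, the median log2 fold change of the 20 tested genes on either side was taken (29 genes in all for SRXN1, near the end of its chromosome). It was -0.03 around TXNRD1, -0.02 around GCLC, -0.15 around SRXN1, -0.004 around HMOX1 and -0.23 around GCLM, the genes that rose. Around NQO1 it was -0.16, and around the regulators that fell it was -0.13 for NFE2L2 and -0.09 for KEAP1. The median of the neighbours was thus below 0 around every gene listed, whether the gene rose, fell or was not called. Whether the surroundings of a gene have a part in its change was not tested.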

How the data were processed

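RNA-seq values of 2 PANC-1 and 2 PZT-2 libraries were re-analysed. Per the study's methods and the submitters' processing notes, the authors trimmed paired reads of stranded mRNA libraries with Trim Galore 0.4.1, estimated RefSeq transcripts with kallisto 0.43.0 and tested with sleuth 0.29.0. The notes name hg19. The strand setting of kallisto is not given in the sources used here. The authors' export from sleuth holds each estimated count multiplied by a scaling factor of its library, the inverse of a size factor. Factors of 1.16 and 0.935 (PANC-1) and 1.03 and 1.01 (PZT-2) were found and undone, after which 49.0% to 49.8% of values from 0.5 to 30 of single-transcript genes were whole to within 0.01, against 0.634% to 2.71% as deposited. Transcript levels, a length-normalized signal in TPM that the authors made with kallisto, are rescaled by a factor per library in the export and were used as deposited. The deposited results table holds the authors' Wald test effects, p and q values, which were not used. Only its gene symbols were read.

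Symbols named 27049 of 31077 transcripts, and RefSeq accessions (GRCh38.p14) 3925 more, giving 15219 genes. The 103 unnamed transcripts held 0.0466% of counts. Counts were rounded, summed per gene and filtered (at least 5 in at least 2 libraries), scaled by TMM factors and tested with edgeR 4.0.16 in R 4.3.3 at an adjusted p of 0.05. Alternatives used DESeq2 1.42.0 and limma 3.58.1, other filters, scalings and dispersion estimates, the most abundant transcript alone, a replicate block and each library left out. Start sites came from GENCODE annotation on GRCh38, which is not the authors' index. The procedure was tested on simulated counts. The members and lists were chosen with earlier results of these data known. In each list, up to 2 genes with the largest rise and 2 with the largest fall among called genes with a mean count of at least 50 are named, besides fixed partners of the members, of which 1 is not reported here.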

Additional observations from a re-analysis of the deposited data

How the results depend on the processing

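Over 128 values of the 8 genes under 16 alternatives, 115 kept direction and side of the threshold, 8 were no longer called, 5 (NQO1) became called and 0 changed sign. GCLC, TXNRD1, SRXN1 and HMOX1 stayed called in each. Without 1 library at a time the log2 fold change of NFE2L2 ran from -0.48 to -0.24, KEAP1 from -0.41 to -0.28, GCLM from 0.34 to 0.52 and NQO1 from 0.14 to 0.22. NFE2L2 was also not called by limma-trend on log2(TPM + 1) (-0.37) or log2(TPM + 0.1) (-0.38) or from its most abundant transcript (-0.44), nor GCLM from its own (0.32). NQO1 was called at 0.18 by DESeq2 (adjusted p = 0.0482), with at least 10 counts in all 4 libraries and with the version 4 and robust estimates of edgeR. Genes called lower numbered 1 in place of 2 of the 8 under both limma fits, from the most abundant transcript and when any of 3 of the 4 libraries was left out, with a range of 1 to 2 over the libraries. From the most abundant transcript alone 2124 genes were called (1132 higher, 992 lower), with 17 higher and 17 lower in the pathway lists. Leaving out a library gave 2027 to 4595 genes called, 1089 to 2437 higher and 938 to 2205 lower, and in the lists 11 to 33 higher and 12 to 40 lower. As separate transcripts, 11 of the 21 were called by DESeq2 (beside 14.8% of all transcripts) and 9 of 18 under the stricter filter (beside 5.86%), against 0 by the edgeR test as reported (beside 0.148%).

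Of 31 other genes named as called, 12 stayed called under each alternative run and 19 did not, with 0 reversals. Among genes not called, those that changed sign with a library left out were CUL3 (-0.13 to 0.05, above 0 without PANC-1 replicate 2 or PZT-2 replicate 1), SQSTM1 (-0.27 to 0.01) and SLC7A11 (-0.63 to 0.30, both above 0 without PANC-1 replicate 1) and the downstream start of NFE2L2 (-0.02 to 0.40, below 0 without PZT-2 replicate 2). The cause of these shifts was not tested, and fits without a library rest on fewer samples, with the lone library assumed to vary like the other line. Deviations of libraries with the same replicate number had a correlation of -0.0209 over 15099 genes. That gives no sign of pairing by number, but it cannot show how the libraries were prepared. A fit with the replicate number as a block called 3744 genes in place of 4288 and left the calls of the 8 genes as they were. Of the other genes named as called, CHAC2 (edgeR adjusted p = 0.0586) and AKR7A2 (edgeR adjusted p = 0.0641) were not called with the block.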
